A study of Mus musculus with 12 samples.

Results

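The measurements below describe the transcripts of 9 genes of the CC chemokine system in mouse tumors: the ligands Ccl2, Ccl7, Ccl8, Ccl12, Ccl3, Ccl4 and Ccl5, and the receptors Ccr1 and Ccr2. They were taken by gene symbol out of the 18211 genes of the expression table, and no measured value entered the choice. RNA was sequenced from 12 tumors of MC38 cells, a mouse colorectal adenocarcinoma line, grown under the skin of female C57BL/6 mice that were 5 weeks old. The tumors formed 4 groups of 3, and no transgene or engineered allele is named for any of them. CK mice received vehicle, and PB-020 mice received PB-020, an orally available inhibitor of the insulin-like growth factor receptor IGF-1R, at 50 mg/kg per day by gavage from the grouping on day 7. Anti-PD-1 mice were injected with 200 μg of the antibody per mouse on days 9, 12, 15 and 18, and PB-020+anti-PD-1 mice, called the combination here, received both. Tumor cells and the cells of the host were sequenced together. The question was which of these transcripts differed between the treatments.

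CC chemokines are small secreted proteins that draw white blood cells along a gradient by binding G protein-coupled receptors on their surface. The monocyte chemoattractant proteins Ccl2, Ccl7 and Ccl12 act on Ccr2 and bring inflammatory monocytes from the blood into tissue, where these become macrophages. Ccl8, a close relative, acts in mice mainly through Ccr8. The macrophage inflammatory proteins Ccl3 and Ccl4 are released by activated macrophages, neutrophils and lymphocytes, Ccl5 is a product of activated T cells and NK cells, and Ccl3 and Ccl5 bind Ccr1. In tumors the Ccl2 and Ccr2 pair is best known for supplying macrophages, and Ccl5 for its tie to T cell infiltrates.

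CK tumor 3 and anti-PD-1 tumor 1 stood apart from the rest in their cell type markers. Most tests and several marker correlations are given with and without them. Other values, such as the correlations between genes, are given only over all 12 tumors. The library totals were alike, between 16545394 and 17217035 expected counts. In CK tumor 3 the summed level of 7 neutrophil markers was 417.0 FPKM, against 8.95 and 9.04 FPKM in the other CK tumors and 8.3 to 38.6 FPKM in the 9 treated tumors. FPKM scales the fragments of a gene by the length of its transcripts and by the library total, so its levels can be set side by side between genes. In anti-PD-1 tumor 1 the sum of 12 skeletal muscle markers was 634.6 FPKM, against 12.63 to 68.59 FPKM in the other 11 tumors, and its sums of macrophage and T cell markers, 3305 and 130.1 FPKM, were the highest of all. In every tumor 7 of 9 epithelial markers were below 1 FPKM, so the keratins Krt8 and Krt18 and the surface protein Epcam, which mark carcinoma cells, were near absent under the carcinoma label. In whole tumors, fewer cells of a type and less RNA per cell cannot be told apart. The labels number the tumors within each group, and p-values measure the spread between these tumors.

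The 7 ligand genes lie in one chromosome 11 neighborhood and the receptor genes in another on chromosome 9, as RefSeq places them on GRCm38.p6. Ccl2 (chr11:82035577-82037452), Ccl7 (chr11:82045712-82047525), Ccl12 (chr11:82101845-82103399) and Ccl8 (chr11:82115185-82116799) follow each other on the plus strand. About a megabase further on come Ccl5 (chr11:83525778-83530518, minus strand), Ccl3 (chr11:83647843-83649378, minus strand) and Ccl4 (chr11:83648624-83664683, plus strand). Ccr1 (chr9:123962126-123968692, minus strand) and Ccr2 (chr9:124101918-124109140, plus strand) are 133257 bases apart in GENCODE M21. The RefSeq spans of Ccl3 and Ccl4 share 755 bases, while the GENCODE genes are 13228 bases apart. Ccl2 is covered by the GENCODE gene Gm17268 on the other strand and Ccl5 by the RefSeq long noncoding RNA Gm32650, and without a stated strand setting the reads of such partners cannot be told apart. Of 50-base stretches of their transcripts, 8 of the 9 genes shared none with another gene, and Ccr2 shared 129 of 6758 (1.91%).

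Ccl12 and Ccl8 are printed upstream of their start because these neighbors, 11784 bases apart, behaved unlike each other in the tumors, and Ccl3 because its level varied most among the 9. The windows are the 250 bases before the RefSeq start, read in the direction of the gene, at chr11:82101595-82101844 (plus strand), chr11:82114935-82115184 (plus strand) and chr11:83649379-83649628 (minus strand) of GRCm38.p6. Capitals mark the TATA box TATAAAA.
Ccl12: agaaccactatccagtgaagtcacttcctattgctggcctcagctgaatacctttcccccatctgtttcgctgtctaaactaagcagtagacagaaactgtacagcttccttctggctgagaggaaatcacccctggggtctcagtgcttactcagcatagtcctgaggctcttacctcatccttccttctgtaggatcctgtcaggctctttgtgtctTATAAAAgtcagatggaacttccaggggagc
Ccl8: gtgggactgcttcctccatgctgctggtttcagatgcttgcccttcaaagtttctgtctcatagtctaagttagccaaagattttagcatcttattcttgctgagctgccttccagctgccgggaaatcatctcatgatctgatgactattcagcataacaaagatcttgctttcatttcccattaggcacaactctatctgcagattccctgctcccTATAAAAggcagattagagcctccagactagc
Ccl3: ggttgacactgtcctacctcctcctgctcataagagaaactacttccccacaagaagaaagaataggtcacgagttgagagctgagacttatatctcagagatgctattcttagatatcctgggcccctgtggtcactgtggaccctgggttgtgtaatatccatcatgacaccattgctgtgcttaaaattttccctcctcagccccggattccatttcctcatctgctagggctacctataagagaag
The TATA box, searched on the strand of the gene, lay at bases -31 to -25 of Ccl12 and -32 to -26 of Ccl8, and 3.02% of 32851 RefSeq windows of this length held it. Of the 9 genes 5 had a window in the RefSeq table, and Ccr1 held the only other match, to the NF-kappaB consensus, which 7.25% of all windows held. The letters TTCNNNGAA of GAS elements, a pair of GAAA with 2 bases between them as in interferon-stimulated response elements, and TGANTCA of AP-1, searched on both strands, were in none of the 5 and in 7.02%, 2.98% and 6.75% of all windows. Such matches describe the letters of a window and were not tested as sites.

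Ccl2 was the most abundant of the 9 transcripts by its mean over the tumors, 245.8 FPKM. In CK tumors Ccl2, the main ligand of Ccr2, was at 198, 138 and 315 FPKM. It was at 232, 282 and 270.3 FPKM with PB-020, at 200.15, 239.81 and 288 FPKM with anti-PD-1, and at 291, 265 and 229 FPKM in the combination. CK tumor 2 was the lowest and CK tumor 3 the highest of all 12, so the CK group spanned every treated tumor. The group means, from low to high, were those of CK (217 ± 90.2 FPKM, mean ± SD over 3 tumors), anti-PD-1 (243 ± 44.0), PB-020 (262 ± 26.0) and the combination (262 ± 30.9), and neighbors in that order overlapped.

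Ccl7, another attractant of monocytes, followed Ccl2 at a lower level. It was at 66.8, 42.3 and 129 FPKM in CK tumors and between 88.7 and 128 FPKM in the 9 treated tumors. The highest value was again CK tumor 3 and the next to lowest and lowest were the other CK tumors. Over the 12 tumors the log2 CPM of Ccl7 and Ccl2 had a Pearson r of 0.911, and 0.908 after removal of the group means, a description over libraries that share their depth.

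Ccl12, a monocyte attractant found in mice and not in humans, was higher in the PB-020 tumors than in any that received the antibody. Its levels were 41.6, 36.3 and 77.2 FPKM in CK, and 66.6, 75.6 and 89.7 FPKM with PB-020. They were 45.5, 46.9 and 47.7 FPKM with anti-PD-1 and 51.0, 60.8 and 51.8 FPKM in the combination. The PB-020 tumors lay above the anti-PD-1 and the combination tumors with no overlap, and CK tumor 3 lay among the PB-020 tumors. Of all genes, 16.5% were lower in all combination than in all PB-020 tumors. The share for PB-020 against anti-PD-1 was not computed.

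Ccl8 had another pattern than its neighbor Ccl12. Its levels were 76.7, 60.1 and 124 FPKM in CK, 137, 59.7 and 228 FPKM with PB-020, 523, 82.5 and 95.5 FPKM with anti-PD-1, and 214, 281 and 222 FPKM in the combination. The highest tumor, anti-PD-1 tumor 1, was 8.76 times the lowest, PB-020 tumor 2. All 3 combination tumors were above all 3 CK tumors, as for 19.6% of all genes, and the other groups overlapped with both. The r of Ccl8 with Ccl2 over the 12 tumors was 0.174, with Ccl12 0.170, and with Ccl5 0.885.

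Ccl3 was the most variable transcript over the 12 tumors, with 21.3 times between the lowest and the highest tumor. This span rests on CK tumor 3. The CK tumors were at 5.79, 5.79 and 123 FPKM, so that tumors 1 and 2 were the lowest and tumor 3 the highest of the 12. The PB-020 tumors were at 8.89, 40.3 and 11 FPKM, the anti-PD-1 tumors at 24.4, 19.9 and 42.2 FPKM, and the combination tumors at 9.48, 32.4 and 21.7 FPKM. The coefficient of variation within CK was 151%, against 41% to 87.4% in the treated groups.

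Ccl4, the other macrophage inflammatory protein, was the rarest of the 9 transcripts and had the same 3 CK extremes. It was at 2.61, 2.54 and 24.4 FPKM in CK, which were 23, 22 and 210 counts. It was at 5.11, 8.24 and 5.69 FPKM with PB-020, at 15.3, 8.04 and 11.2 FPKM with anti-PD-1, and at 8.86, 16.5 and 12.4 FPKM in the combination. All 3 combination tumors were above the 3 PB-020 tumors, as for 14.6% of all genes. The r of Ccl4 and Ccl3 was 0.867 over the 12 tumors.

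Ccl5 was low in CK tumors, at 11.8, 12.6 and 19.5 FPKM. It was at 15.2, 19.3 and 29.5 FPKM with PB-020, at 145, 27.7 and 20.4 FPKM with anti-PD-1, and at 40.4, 55.5 and 51.1 FPKM in the combination. Each tumor that received the antibody, alone or with PB-020, was above each CK tumor, by 20.4 against 19.5 FPKM at the nearest. Of all genes, 13.9% were higher in all anti-PD-1 and 19.6% in all combination tumors than in all CK tumors. The share with both was not computed. Anti-PD-1 tumor 1 was the highest of the 12, at 12.3 times the lowest, and the combination tumors were close together, with a coefficient of variation of 15.9% against 109% with anti-PD-1 alone.

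The receptors varied less than Ccl3, Ccl5, Ccl4 and Ccl8, with 1.69 times between the lowest and the highest tumor for Ccr1 and 2.52 times for Ccr2. Ccr1, a receptor of monocytes and neutrophils, was at 15.5, 13.8 and 22.5 FPKM in CK, between 14.2 and 16.6 FPKM with PB-020, between 15.3 and 20.5 FPKM with anti-PD-1, and at 23.3, 23.3 and 19.1 FPKM in the combination. Ccr2, the receptor of inflammatory monocytes, was at 12.6, 11.3 and 12.4 FPKM in CK, at 10.5, 15.8 and 7.38 FPKM with PB-020, at 10.4, 11.5 and 11.2 FPKM with anti-PD-1, and at 18.6, 17.3 and 14.2 FPKM in the combination. All 3 combination tumors were above all CK and all anti-PD-1 tumors for Ccr2. Of all genes, 19.6% were so against CK and 4.33% against anti-PD-1, and the share with both was not computed. For Ccr1 the combination lay above the 3 PB-020 tumors, as for 14.6% of all genes, and CK tumor 3 lay within the combination.

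In the order of the group means, neighbors overlapped for 6 of the 9 transcripts and stood apart at 1 step for the other 3. The share of all genes with such a step was not computed, so this count cannot be read as a property of these transcripts. The shares that follow are for fixed pairs of groups. Of all genes, 16.5% were lower and 14.6% higher in every combination than in every PB-020 tumor. In every combination tumor 19.6% of all genes were higher than in every CK tumor. The combination (54.5 ± 5.46 FPKM, mean ± SD over 3 tumors) was below PB-020 (77.3 ± 11.7) for Ccl12. For Ccl5 PB-020 (21.3 ± 7.38) was below the combination (49.0 ± 7.77), and anti-PD-1 alone (64.3 ± 69.8) was higher by its mean and overlapped both. CK (12.1 ± 0.707) was below the combination (16.7 ± 2.29) for Ccr2.

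**Figure D1:**
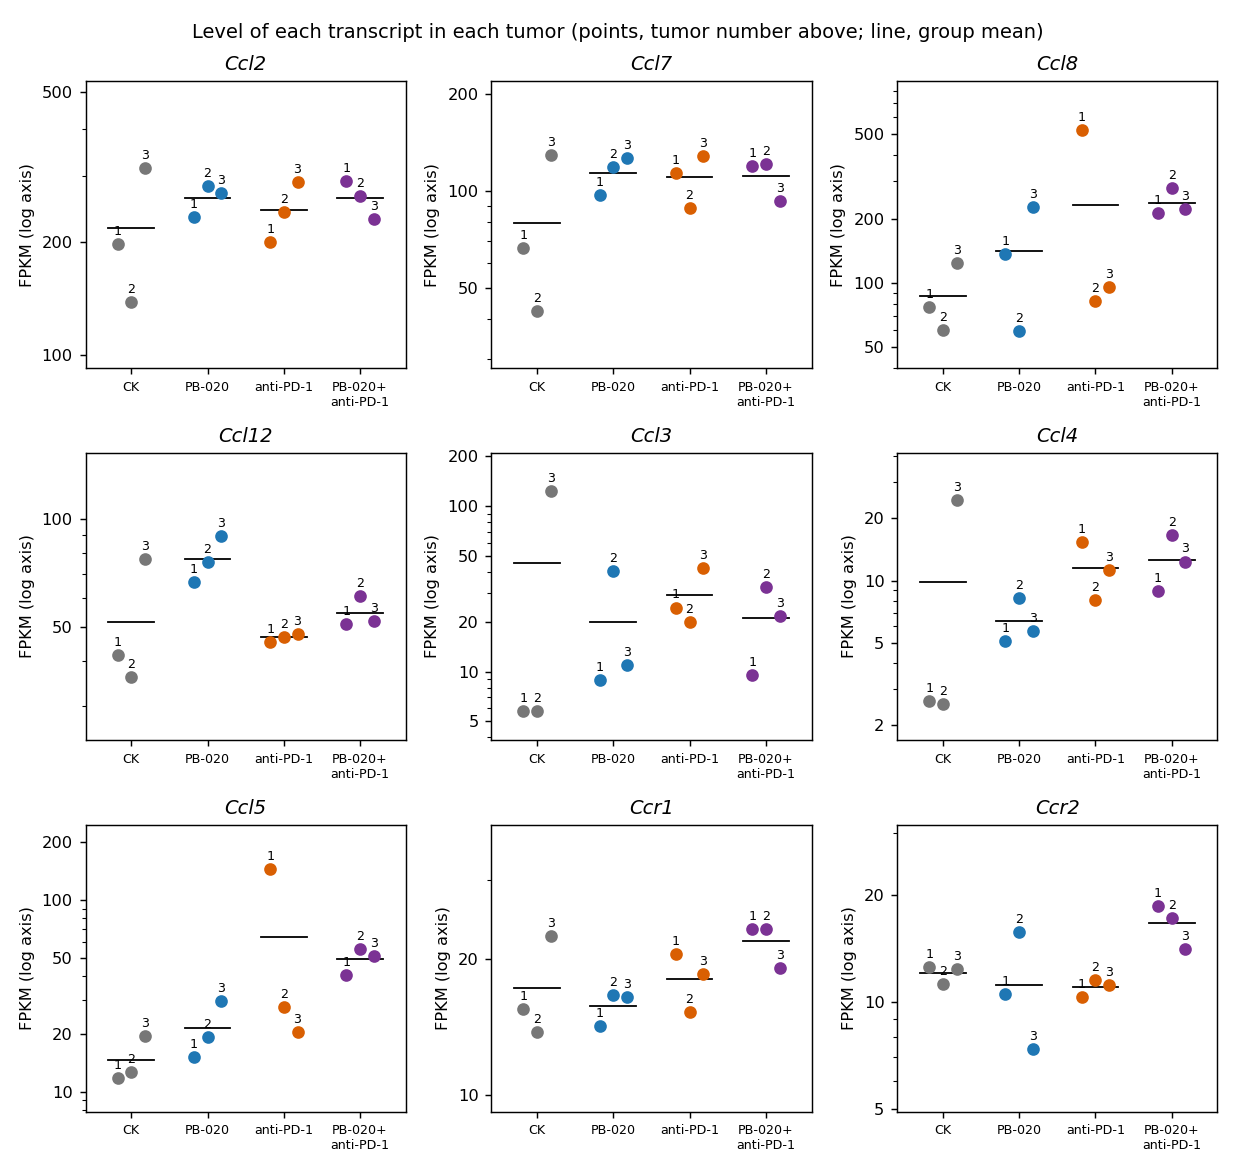
FPKM on a log axis of the 9 transcripts in each of the 12 tumors, by group, with the tumor number above each point and the group mean as a line. CK tumor 3 is the highest point for Ccl2, Ccl7, Ccl3 and Ccl4, and anti-PD-1 tumor 1 for Ccl8 and Ccl5.

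Together the 7 ligands summed to between 297.9 FPKM in CK tumor 2 and 1066 FPKM in anti-PD-1 tumor 1. Ccl2 made up between 18.8% and 49.1% of that sum and Ccl8 between 9.89% and 49.0%. In 10 of the 12 tumors Ccl2 was the largest part. Ccl8 was the largest in anti-PD-1 tumor 1 and in combination tumor 2, where it held 33.7% against 31.9% for Ccl2.

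With PB-020 alone, none of the 9 transcripts passed the test against CK. The quasi-likelihood test of edgeR, adjusted by the Benjamini-Hochberg method over 13563 genes, called 0 of the 9 and 0% of all genes tested at an adjusted p below 0.05. At an unadjusted p below 0.05 it had 1 of the 9, Ccl12, against 5.46% of all genes, and DESeq2 (0.0443% of all genes called) and limma called 0. The log2 change of Ccl12 was 0.60 ± 0.23 (SE), or 1.51-fold, with an adjusted p of 0.874. The change of Ccl2 was 0.29 with a 95% interval of -0.31 to 0.88, and that of Ccl3 was -1.14 with an interval of -3.84 to 1.57, so for Ccl3 both a large decrease and a large increase were within the interval. No member was without overlap between PB-020 and CK, against 7.78% of all genes higher in this way.

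With anti-PD-1 alone, Ccl5 differed most from CK by value, and no member passed the adjusted threshold. edgeR called 0 of the 9, with 8.26% of all genes called. Ccl5 was the 1 member at an unadjusted p below 0.05 (26.6% of all genes), with a log2 change of 2.17 ± 0.72, or 4.51-fold, and an adjusted p of 0.0995. It was also the 1 member whose 3 tumors all lay above CK, as 13.9% of all genes did. DESeq2 called Ccl5 (log2 change 2.17, adjusted p 0.0168, 12.6% of all genes called). limma called no member, with 7.63% of all genes called at a pseudocount of 1 added to FPKM and 7.88% at 0.1. Without anti-PD-1 tumor 1 the change of Ccl5 was 0.75 ± 0.30 (adjusted p 0.176). For Ccl8 it was 1.47 ± 0.77 (adjusted p 0.267) with that tumor and 0.07 ± 0.54 (adjusted p 0.958) without it, and for Ccl2, Ccl7 and Ccl12 it was 0.19, 0.50 and -0.11. The log2 change was 0.09 for Ccr1 and -0.11 for Ccr2.

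In the combination, 8 of the 9 log2 changes against CK were above 0, and none passed the adjusted threshold. The share of all genes above 0 was 49.6%, and the median log2 change was 0.40 over the 9 transcripts and -0.0026 over all genes. edgeR called 0 of the 9 against 17.9% of all genes. Ccl5 (1.76 ± 0.72, 3.39-fold, adjusted p 0.126) and Ccr1 (0.37 ± 0.17, 1.29-fold, adjusted p 0.147) had an unadjusted p below 0.05, as did 33.9% of all genes. Ccr2 was next, with a log2 change of 0.49 ± 0.22 and an adjusted p of 0.149. Ccl8, Ccl5 and Ccr2 had all 3 combination tumors above all CK tumors, which 19.6% of all genes had. DESeq2 called Ccl5 (adjusted p 0.045, 20.9% of all genes called). limma called no member, with 18.1% of all genes called at a pseudocount of 1 and 18.4% at 0.1. Without anti-PD-1 tumor 1 edgeR called Ccl5 (1.76, adjusted p 0.00177, 24.4% of all genes called), and without PB-020 tumor 2 or 3 it called Ccr2 (0.49, adjusted p 0.0269 and 0.0377, with 17.1% and 15.8% of all genes called). Fitted on the CK and combination tumors alone, edgeR called Ccl8 (1.48, adjusted p 0.0396), Ccl5 (1.76, adjusted p 0.000284) and Ccr2 (0.49, adjusted p 0.00483), with 22.5% of all genes called.

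Taking every tumor that received the antibody against every tumor that did not, Ccl5 rose. This contrast is the mean of the antibody effect without and with PB-020, and its log2 change for Ccl5 was 1.69 ± 0.50, or 3.22-fold, with a 95% interval of 0.54 to 2.84 and an adjusted p of 0.0416 by edgeR. It was the 1 of 9 called, with 24.2% of all genes called and 11.8% called as raised. DESeq2 called Ccl5 too (adjusted p 0.00329, 25.5% of all genes called), and limma did not (adjusted p 0.0605 at a pseudocount of 1 and 0.0591 at 0.1). The call also ended with no filter on low counts (adjusted p 0.0587) and with the replicate number as a block (adjusted p 0.0919). The groups of 6 overlapped, since a PB-020 tumor at 29.5 FPKM was above the 2 lower anti-PD-1 tumors. The call was lost without any 1 of the CK, PB-020 or combination tumors (adjusted p of 0.062 to 0.0956), and it held without any 1 of the anti-PD-1 tumors. Without anti-PD-1 tumor 1 the log2 change was 0.98 ± 0.20 and the adjusted p 0.00718, with 21.8% of all genes called. Without PB-020 tumor 2 the 1 member called was Ccr2 (0.39, adjusted p 0.0177, 22.5% of all genes called). Ccr1 (0.28 ± 0.12, adjusted p 0.106) was the other member at an unadjusted p below 0.05, which 37.9% of all genes had.

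**Figure D2:**
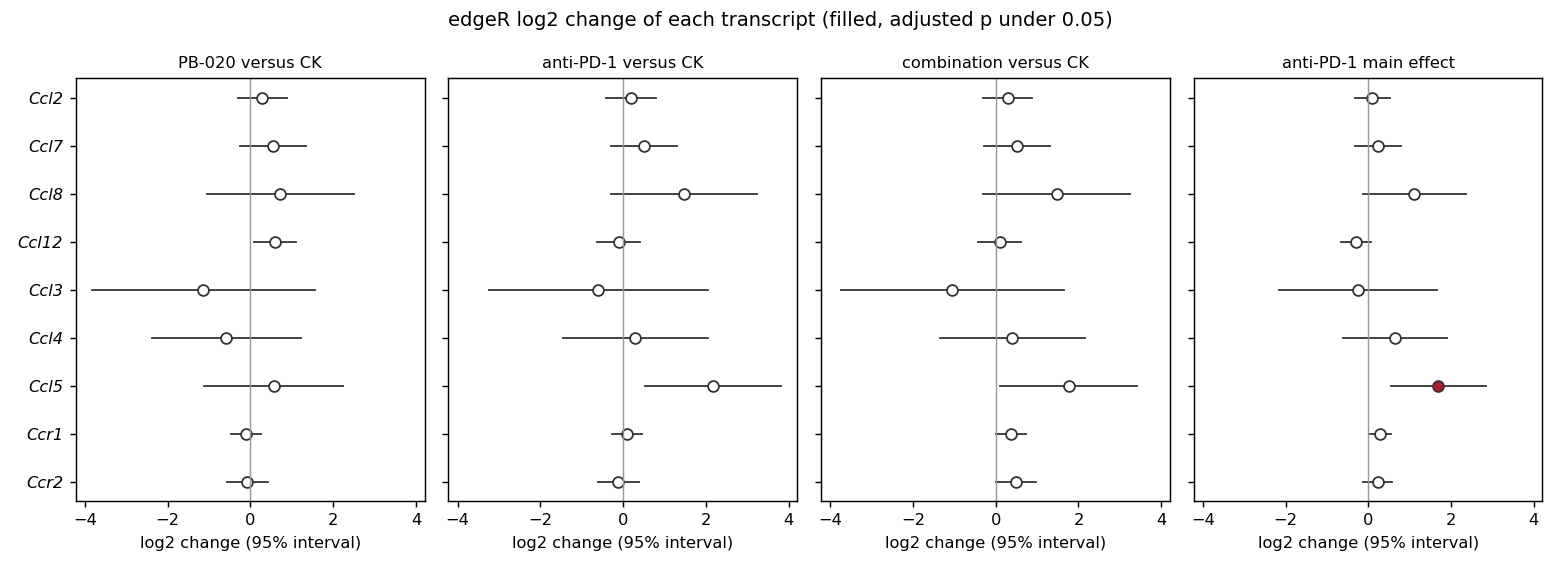
The log2 change of the 9 transcripts from edgeR with its 95% interval, for each treated group against CK and for all antibody-treated against all other tumors. The filled point, Ccl5 at 1.69, is the call at an adjusted p below 0.05, and the intervals of Ccl3, Ccl4 and Ccl8 are the widest.

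Adding PB-020 to anti-PD-1 left every member short of the threshold. Against anti-PD-1 alone edgeR called 0 of the 9 and 0% of all genes, DESeq2 (0.00738% of all genes) and limma 0 members, and 1 member, Ccr2, had an unadjusted p below 0.05 (7.26% of all genes). Ccr2 was 1.51-fold higher by its fitted value, a log2 change of 0.60 ± 0.22 with an adjusted p of 0.663. Ccr2 and Ccl12 had all combination tumors above all anti-PD-1 tumors, as 4.33% of all genes had. For Ccl5 the log2 difference was -0.41 with an interval of -1.94 to 1.11, and without anti-PD-1 tumor 1 it was above 0, at 1.01 ± 0.29 (adjusted p 0.518). The difference of Ccl8 moved from 0.01 to 1.40 (adjusted p 0.603) without that tumor.

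For anti-PD-1 added to PB-020, edgeR called 0 of the 9, with 3.35% of all genes called. Ccr1 (0.47 ± 0.17, adjusted p 0.128) and Ccr2 (0.57 ± 0.22, adjusted p 0.165) had an unadjusted p below 0.05, as did 22.4% of all genes. DESeq2 called both (adjusted p 0.0467 each, 8.35% of all genes called). limma called none of the 9, with 2.59% of all genes called at a pseudocount of 1 and 2.87% at 0.1. Ccl4, Ccl5 and Ccr1 were higher in all combination than in all PB-020 tumors (14.6% of all genes), and Ccl12 was lower (16.5%). The log2 change of Ccl12 was -0.50 ± 0.23 (adjusted p 0.233). In the fit of these 2 groups alone, Ccl12 fell (-0.50, adjusted p 0.0132), and Ccl4 (0.99, adjusted p 0.0259), Ccl5 (1.21, adjusted p 0.0246) and Ccr1 (0.47, adjusted p 0.00476) rose, with 11.6% of all genes called. Without PB-020 tumor 2, Ccr2 rose (0.90, adjusted p 0.0227, 2.89% of all genes called), and without anti-PD-1 tumor 1, Ccl5 did (1.20, adjusted p 0.0199, 9.28% of all genes called).

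Over both antibody settings PB-020 called 0 of the 9 and 0% of all genes by edgeR, with 1 member, Ccl12 (0.40 ± 0.17, adjusted p 0.417), and 10.9% of all genes at an unadjusted p below 0.05. limma called 0 members. DESeq2 gave an adjusted p to only 2256 genes, of which it called 61 (2.7%). Of the 9 members 1, Ccl2, was among the 2256, and it was not called. The interaction, which asks whether the combination differs from the sum of both single changes, called 0 members and 0% of all genes with edgeR, DESeq2 and limma. No member, and 2.29% of all genes, had an unadjusted p below 0.05 for it with edgeR. The nearest, Ccr2, had an interaction of 0.68 ± 0.31 on the log2 scale (unadjusted p 0.0546, adjusted p 1).

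Several comparisons with CK turned on CK tumor 3. It was the highest CK tumor for every member but Ccr2, so leaving it out lowers their CK level and narrows that group by construction. The calls of Ccl5, Ccr2 and Ccl8 against CK given above came in settings that kept this tumor. Without CK tumor 3, edgeR called Ccl7 (log2 change 1.03 ± 0.23, adjusted p 0.0417) and Ccl4 (2.20 ± 0.37, adjusted p 0.0193) as raised with anti-PD-1, with 4.65% of all genes called. It called 4 in the combination, with 11.5% of all genes called: Ccl7 (1.04, adjusted p 0.0242), Ccl12 (0.50, adjusted p 0.0371), Ccl4 (2.33, adjusted p 0.00711) and Ccr1 (0.60, adjusted p 0.0162). Over all antibody-treated tumors it called Ccl7 (0.50, adjusted p 0.0435), Ccl4 (1.60, adjusted p 0.00171) and Ccr1 (0.40, adjusted p 0.00897), with 20.8% of all genes called. Against PB-020 alone the combination then had Ccl12 lower (-0.49, adjusted p 0.048) and Ccr1 higher (0.48, adjusted p 0.0472), with 2.73% of all genes called. The values of Ccl3 against CK turned from below to above 0, from -1.05 to 1.89 in the combination, from -0.60 to 2.33 with anti-PD-1 and from -1.14 to 1.79 with PB-020, and none of these passed the threshold (adjusted p of 0.156 to 0.988). With PB-020 alone 0 members and 0% of all genes were called in this setting, as over all PB-020-treated tumors and in the combination against anti-PD-1.

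Without both CK tumor 3 and anti-PD-1 tumor 1, a setting chosen after their values were seen, the combination differed from CK in 6 of the 9, with 20.6% of all genes called. Raised were Ccl2 (0.65 ± 0.17, adjusted p 0.0319), Ccl7 (1.04 ± 0.27, adjusted p 0.0346), Ccl12 (0.50 ± 0.14, adjusted p 0.0188), Ccl4 (2.33 ± 0.33, adjusted p 0.000623), Ccl5 (2.02 ± 0.28, adjusted p 0.00143) and Ccr1 (0.60 ± 0.12, adjusted p 0.00416). Ccl12 was then also raised with PB-020 alone (0.99 ± 0.13, adjusted p 0.0241), 1 of 2 genes called in that comparison (0.0147% of all genes). Anti-PD-1 alone had Ccl4 raised (1.94, adjusted p 0.014, 3.37% of all genes called). Against PB-020, the combination had Ccl12 lowered and Ccl4, Ccl5 and Ccr1 raised (10.9% of all genes called). Over all antibody-treated tumors Ccl4, Ccl5 and Ccr1 were raised (21.2%), and over all PB-020-treated tumors Ccl12 was (0.59, adjusted p 0.0474, 0.0294% of all genes). In this setting the CK and the anti-PD-1 group hold 2 tumors each, and removing the highest CK tumor narrows that group by construction.

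**Figure D3:**
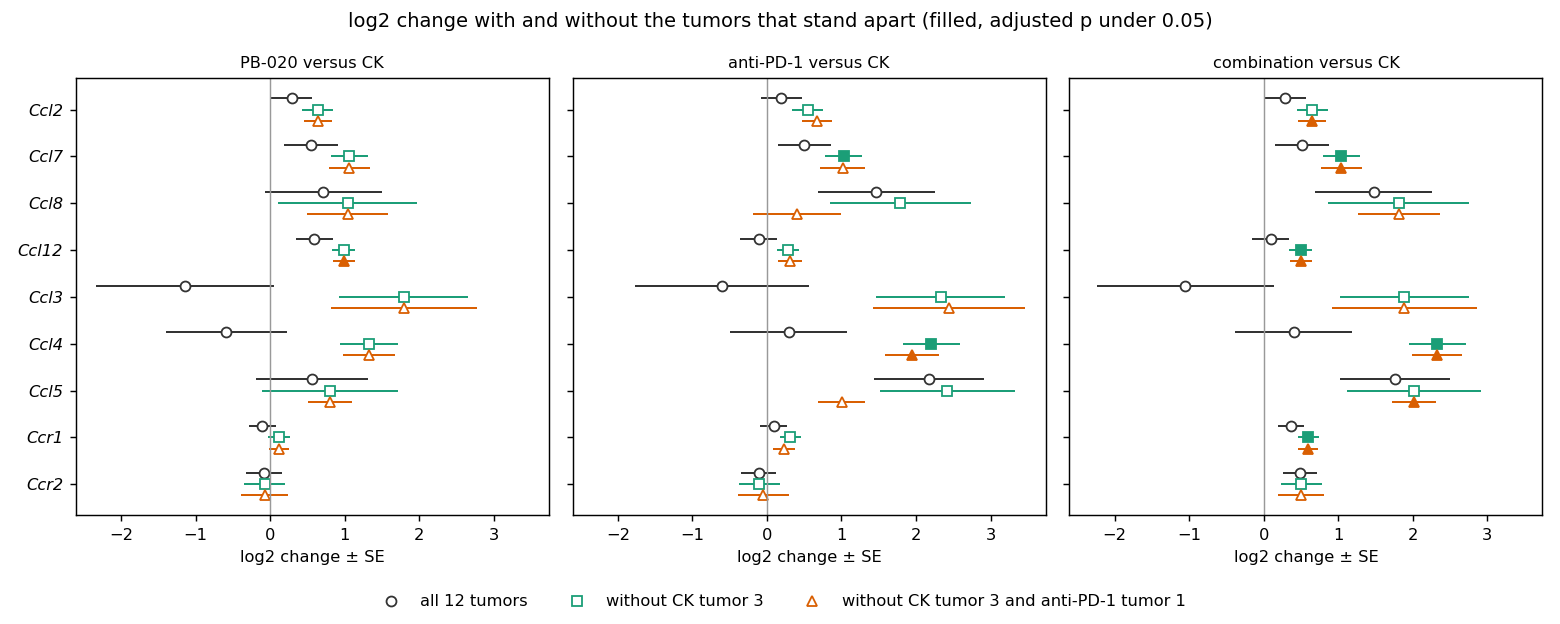
The log2 change ± SE of the 9 transcripts against CK, with all 12 tumors (circles), without CK tumor 3 (squares) and without CK tumor 3 and anti-PD-1 tumor 1 (triangles), filled at an adjusted p below 0.05. Ccl3 moves from -1.05 to 1.89 and Ccl4 from 0.40 to 2.33 in the combination when CK tumor 3 is left out.

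Cell type markers moved with several of these transcripts. The order of the tumors by Ccl3 was close to that by the neutrophil markers: their log2 values had an r of 0.897 over the 12 tumors and of 0.901 over 10 without CK tumor 3 and anti-PD-1 tumor 1. Of the 7 neutrophil markers all were in the table, and Ly6g, which defines the lineage in mice, was below 1 FPKM in every tumor, while S100a8 was at 163 FPKM in CK tumor 3 and at 12.4 FPKM or less elsewhere. For Ccl4 the r with the neutrophil sum was 0.725 and 0.722, and with the T cell sum 0.634 and 0.868. The part of neutrophils in the Ccl3 and Ccl4 values was not tested.

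Ccl5 was highest in the tumors with the highest T cell markers, of which edgeR called 11 of the 12 tested as raised over all antibody-treated tumors (median log2 change 1.34). The sum of 12 T cell markers was 37.9 to 52.2 FPKM in CK, 50.5 to 58.5 FPKM with PB-020, 65.95 to 130.1 FPKM with anti-PD-1 and 73.8 to 107.2 FPKM in the combination, and its r with Ccl5 was 0.938 over 12 and 0.909 over 10 tumors. The sum of 7 NK cell markers was 9.15 to 11.02 FPKM in CK and 21.4 to 32.7 FPKM in the combination, with an r of 0.853 with Ccl5, and for the sum of 14 macrophage and monocyte markers the r was 0.885. Over all antibody-treated tumors, where 24.2% of all genes were called, 5 of the 5 erythroid markers tested and 3 of 8 fibroblast markers were lowered. Of the 8 fibroblast markers 4 had a log2 change above 0, none was called as raised, and their median was 0.14. The r of the erythroid and the fibroblast sum with Ccl5 was -0.564 and -0.361 (-0.804 and -0.587 over 10 tumors). Set against the T cell receptor component Cd3e in the same tumor, the log2 ratio of Ccl5 was 0.05 higher with the antibody than without (exact stratified permutation test, two-sided p 0.88, adjusted p 0.959). With a pseudocount of 1 in place of 0.1 that difference was 0.46 (adjusted p 0.468), and without anti-PD-1 tumor 1 it was -0.16 (adjusted p 0.602). Over all 12 tumors the smallest p this permutation test can give is 0.005, too large for a pair alone to pass after adjustment. The test therefore cannot decide whether Ccl5 rose in step with Cd3e or beyond it, and the difference changed with the pseudocount. Ccl8 had an r of 0.919 with the sum of the macrophage and monocyte markers, 0.873 with that of the NK cell and 0.840 with that of the T cell markers. These were 0.884, 0.883 and 0.763 over 10 tumors, without CK tumor 3 and anti-PD-1 tumor 1. The macrophage and monocyte sum was 1734 to 2191 FPKM in CK, 1716 to 3305 FPKM with anti-PD-1 and 2247 to 2633 FPKM in the combination, where the median log2 change of the 14 genes against CK was 0.06 and edgeR called 1, Ly6c2. The r of that sum over the 12 tumors was 0.752 with Ccr1, 0.165 with Ccl2 and 0.120 with Ccr2. Over 10 tumors, without CK tumor 3 and anti-PD-1 tumor 1, it was 0.904, 0.489 and 0.443. The part of these cells in the differences between groups was not tested.

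**Figure D4:**
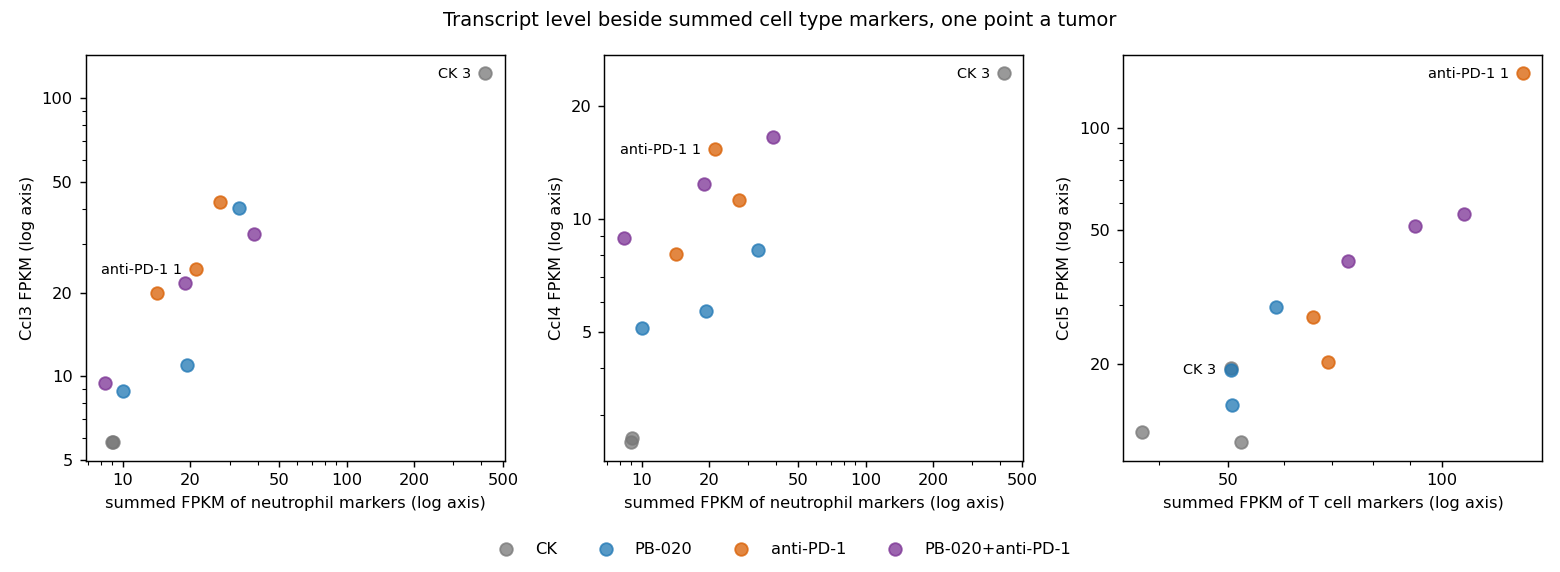
Level of Ccl3, Ccl4 and Ccl5 in FPKM against the summed FPKM of neutrophil or T cell markers, both on log axes, with 1 point a tumor colored by group. CK tumor 3 stands alone at 417.0 FPKM of neutrophil markers, and anti-PD-1 tumor 1 is highest for T cell markers, at 130.1 FPKM, and for Ccl5, at 145 FPKM.

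Ratios of these transcripts within a tumor were compared with a test that could not have called a single pair. Of 22 tests, 11 pairs for each drug, none passed an adjusted p below 0.05 in the exact stratified permutation test, whose 400 arrangements allow a smallest p of 0.005, too large for 1 pair alone to pass after adjustment over 22. Ccl12 against Ccl2 had the smallest p, with a log2 ratio 0.39 lower with the antibody than without by value (difference -0.39, p 0.01, adjusted p 0.165). Ccl5 against Ccl2 was next, with a ratio 1.31 higher with the antibody (p 0.015, adjusted p 0.165). Against Csf1r, a receptor that macrophages carry, the ratio of Ccr1 was 0.31 higher with the antibody and 0.31 higher with PB-020 (adjusted p 0.5 each), and that of Ccr2 was 0.28 and 0.42 higher (adjusted p 0.516 and 0.5).

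Of 11 other receptors examined 7 were tested, and edgeR called 1, Ccr9, in the combination against CK, as raised, beside 17.9% of all genes. Ccr9, a receptor of gut-homing lymphocytes, had 18 to 24 counts in combination and 6 to 12 counts in CK tumors, with a log2 change of 1.22 ± 0.39 and an adjusted p of 0.0433, which was 0.0746 with DESeq2 and 0.0564 to 0.175 without any 1 of the CK, PB-020 or combination tumors or anti-PD-1 tumor 3. Of 14 other CC chemokines 13 were in the table, 11 were tested and edgeR called none against CK with any treatment, while DESeq2 called Ccl21a in the combination (3.42, adjusted p 0.024). Over all antibody-treated tumors, where 24.2% of all genes were called, Ccr9 was called (1.01 ± 0.28, adjusted p 0.0192, which was 0.0532 with limma at a pseudocount of 1, 0.0547 without CK tumor 2 and 0.0522 without PB-020 tumor 1). Of the 11 chemokines 1 was called there, Ccl21a (2.98, adjusted p 0.035), a lymphoid tissue chemokine with near-identical copies in the mouse genome, so its reads are uncertain. It had 2.49 to 139.97 counts across the tumors, and the adjusted p was 0.0573 to 0.0846 without CK tumor 2 or 3, PB-020 tumor 1 or 3, anti-PD-1 tumor 1 or 3, or combination tumor 2 or 3.

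**Figure D5:**
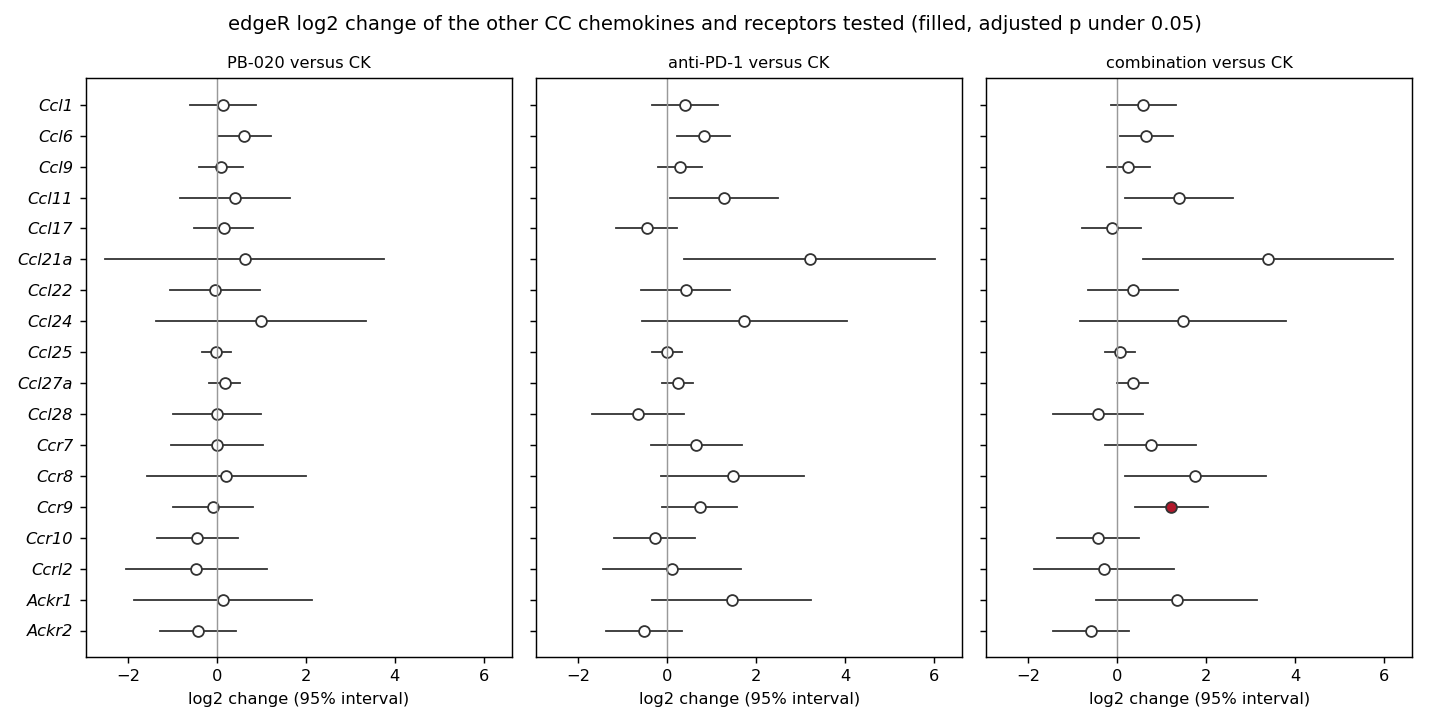
The log2 change against CK, with its 95% interval, of the 11 other CC chemokines and 7 other receptors tested. The filled point, at an adjusted p below 0.05, is Ccr9 in the combination (1.22).

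The genes beside these 9 whose log2 CPM was most like each transcript over the 12 tumors were named by Pearson's r, as a description. For Ccl3 they were Hcar2 (0.967), G0s2 (0.962) and Il1a (0.958), and for Ccl4 Il1rn (0.974), Igsf6 (0.956) and Arg2 (0.955). For Ccl5 they were Gimap3 (0.977), Mfap5 (0.956) and Colec12 (0.952), and for Ccl8 Cgref1 (0.944), Ace (0.936) and Mmp25 (0.932). For Ccr1 they were Cd53 (0.928), Srgn (0.927) and Lilrb4a (0.924), and for Ccl7 Rgs1 (0.920), Gpr84 (0.885) and Cerkl (0.868). For Ccl2 they were Gm40514 (0.876), Mettl5 (0.865) and Gm6377 (0.853), and for Ccl12 Fhl4 (0.886), Il18 (0.850) and Gm21154 (0.848). For Ccr2 they were Gm46339 (0.864), Ubxn2b (0.863) and Rsrp1 (0.856). CK tumor 3 was the highest tumor for Ccl3 and Ccl4 and anti-PD-1 tumor 1 for Ccl5 and Ccl8, and the likenesses were not computed without them.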

How the data were processed

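The authors read the libraries as pairs of 150 bases, aligned them with Bowtie2 to mm10 and quantified genes with RSEM, and the submitters' processing notes also name HISAT and GRCm38.p6. Tool versions, annotation and strand setting are not given in the sources used here. Of the values that the authors deposited, the expected count of RSEM is an estimate without normalization, and FPKM is scaled by transcript length and library total. TPM and the authors' group means were not used here. Expected counts were rounded to whole numbers (91% were whole within 0.001).

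In R 4.3.3, genes passing filterByExpr (minimum count 10; 13563 of 18211) were scaled by TMM and fitted with edgeR 4.0.16 (robust quasi-likelihood, 4 group means, 12 libraries), two-sided, with Benjamini-Hochberg adjustment over all genes. DESeq2 1.42.0 and limma 3.58.1 on log2(FPKM + 1) or log2(FPKM + 0.1) were alternatives, with other filters and scaling, the replicate number as a block, fits of 2 groups alone, and each tumor left out. On simulated counts for the combination against CK (13484 genes) the test recovered 31 of 66 genes changed 1.5-fold, 53 of 67 changed 2-fold and 55 of 66 changed 3-fold, and called 8 of 13285 unchanged ones. Gene pairs were compared by log2(FPKM + 0.1) ratios, permuted within the other drug. Counts and FPKM cover counting and tumor-to-tumor error, not alignment error. Correlations between genes used log2 CPM (prior count 2). Those with cell type markers set the log2 CPM of a transcript against log2 of the summed marker FPKM plus 0.1.

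All 9 genes, the other CC genes called in a contrast with CK, and the 3 likest genes of each were named. Ccl21a was named after its values were seen. Of the CC family, 1 gene is not reported here. The 9 genes, the lists and the tests were chosen with earlier results of these data known. Of the table's genes, 18091 matched RefSeq of GRCm38.p6.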

Additional observations from a re-analysis of the deposited data

How the results depend on the processing

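The number of the 9 transcripts called differed between settings in most comparisons, and no called value changed its direction. With only the groups compared in the fit, 3 were called in the combination against CK (22.5% of all genes) and 4 in the combination against PB-020 (11.6%). For anti-PD-1 against CK that fit called 0 members and 3 genes in all (0.0226%). DESeq2 called 1 with anti-PD-1 (12.6% of all genes), 1 in the combination (20.9%) and 2 in the combination against PB-020 (8.35%). Over all antibody-treated tumors 0 were called with no filter on low counts, with limma at a pseudocount of 1 or of 0.1, and with the replicate number as a block (15.8%, 22.7%, 23.2% and 20% of all genes called). Leaving out each tumor in turn gave 0 to 2 calls with anti-PD-1, 0 to 4 in the combination, 0 to 2 in the combination against PB-020 and 0 to 3 over all antibody-treated tumors, with 0.996% to 13.8%, 6.28% to 24.4%, 0% to 9.28% and 15.2% to 26.8% of all genes called. Another setting, chosen after seeing the data, left out CK tumor 3 and anti-PD-1 tumor 1. The counts were then 1 with PB-020 (0.0147% of all genes), 1 with anti-PD-1 (3.37%) and 6 in the combination (20.6%). They were 4 in the combination against PB-020 (10.9%), 3 over all antibody-treated tumors (21.2%) and 1 over all PB-020-treated tumors (0.0294%). Some of these settings make a compared group smaller, while the fits of 2 groups alone keep its 3 tumors. In that fit of the combination against CK, the log2 changes of Ccl5 (1.76 ± 0.20) and Ccr2 (0.49 ± 0.10) stayed as they were. Their SE was smaller than in the fit of all 12 tumors. The cause of the changed counts was not tested. The other 148 of 179 counts, with those of the gene pairs among them, stayed within 1.5 times, and most of them were 0 in both fits. An equal count can hide a change: without PB-020 tumor 2 the 1 call over all antibody-treated tumors was Ccr2 in place of Ccl5. Uncalled values of Ccl3 changed sign with limma (0.16 in the combination against CK).

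The replicate block lowered Ccl5 over all antibody-treated tumors to 1.61 (adjusted p 0.0919) and Ccr9 in the combination to an adjusted p of 0.0589. Equal replicate numbers did not pair the tumors: of 18 correlations of their deviations 2 were over 0.1, and 2 of 12 tumors were closest to their own number. With 3 tumors a group, changes below about 2-fold were often missed in the simulation. Its changed genes were drawn from all genes tested, each with its own spread, so its shares need not hold for these transcripts. The coefficient of variation within a group reached 151% for Ccl3, 128% for Ccl4, 109% for Ccl5 and 107% for Ccl8. Larger changes of these could be missed too.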
